A study of Mus musculus with 7 samples.

Results

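Livers taken 4 weeks after hepatocyte Cre (2 arrays) were compared with livers taken 2 weeks after it (2 arrays), to ask which early changes in gene expression faded, persisted, grew or reversed. These are 4 of the 7 arrays of the series, and the other 3, from livers at 0 weeks, served as the control level. All samples, controls included, came from Dicer1 fl/fl male mice of mixed background (129S4 with C57BL/6). The age recorded for all 7 samples is 8 to 10 weeks. Mice of the 2 week and 4 week groups had received AAV8-Ttr-Cre at 8 to 10 weeks of age. This is an adeno-associated virus in which a transthyretin promoter, active in hepatocytes, drives Cre, so other liver cells were meant to keep Dicer1. All livers were collected after a 4 h fast. Control virus was given to none of the groups, and all controls date from 0 weeks. Elapsed time, virus and loss of Dicer1 therefore cannot be told apart in any difference from control. Between 2 and 4 weeks, time since virus and any difference in age at harvest cannot be told apart either. The comparison covered 16819 named genes, each read from the probe set with the highest mean signal over the 7 arrays.

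The enzyme made from Dicer1 releases mature microRNAs from their hairpin precursors, and mature microRNAs lower the stability and translation of the mRNAs they pair with. Its loss in hepatocytes removes new microRNAs, and the mRNA levels of their targets can then shift over days to weeks. The liver also runs a circadian clock. In it BMAL1 (gene Arntl) and CLOCK drive E-box genes such as the Per, Cry, Nr1d and Dbp genes, while the nuclear receptors REV-ERB alpha and beta (Nr1d1 and Nr1d2) repress Arntl.

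Values are log2 signals on 1 probe set per gene, and differences are in log2 units. Values follow a control to 2 week to 4 week order in what follows. Arrays of a group often held exactly equal values. Those at 2 weeks did in 1733 genes, those at 4 weeks in 2137 and all controls in 884. Nr1d2, Ddias, Fst and Irs2 were tied at 4 weeks. Such ties need not show close replicates and can make an interval too narrow, and their origin was not tested. Over all genes, the standard deviation (SD) of the difference between paired arrays was 0.273 between the 2 week arrays and 0.206 between the 4 week arrays. It was 0.218 to 0.250 between an array of one time and an array of the other, so the times lay no farther apart than the 2 week arrays did from each other. Against the controls it was 0.295 to 0.404, and the lowest of these values, 0.295 to 0.307, belonged to replicate 1 at 2 weeks. The hepatocyte markers averaged 14.07 to 14.12 in the controls, 14.11 to 14.15 at 2 weeks and 14.12 to 14.13 at 4 weeks. Dicer1 read 8.73, 8.71 and 8.58 in the controls, 8.03 and 7.79 at 2 weeks and 7.97 and 8.05 at 4 weeks. All 4 arrays after Cre were below the controls, and the times overlapped, with a difference of 0.10 (standard error, SE, 0.10). The p from limma, adjusted by the Benjamini-Hochberg method over all genes as are all adjusted p here, was 0.839. The array reads the whole transcript of whole liver, so Dicer1 signal can come from exons outside the deleted part and from other cells.

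Between 2 and 4 weeks a single gene passed the test, and it encodes a clock repressor. Nr1d1 read 9.11, 9.23 and 9.08 in the controls, 8.27 and 8.59 at 2 weeks and 11.14 and 11.01 at 4 weeks. Both 2 week arrays lay below every control and both 4 week arrays above every control. The rise from 2 to 4 weeks was 2.65 (SE 0.12, 95% interval 2.35 to 2.94), or 6.26-fold, with a limma adjusted p of 0.0155. At 2 weeks Nr1d1 had fallen 1.63-fold below control (adjusted p = 0.027) and at 4 weeks it had risen 3.83-fold above it (adjusted p = 0.00284). Thra, which encodes a thyroid hormone receptor and overlaps Nr1d1 on the opposite strand, differed by 0.03 between the times.

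Over all 16819 genes, 1 rose (0.00595%) and 0 fell between the times at an adjusted p under 0.05 in limma. At an unadjusted p under 0.05, 707 genes were higher (4.2%) and 543 lower (3.23%) at 4 weeks, 7.43% in all. The arrays of the times did not overlap in 4479 genes (26.6%), but in only 27 (0.161%) did they also differ at least 2-fold, 14 higher (0.0832%) and 13 lower (0.0773%). The call for Nr1d1 was lost when any of the 7 arrays was left out, with adjusted p from 0.0755 (without replicate 2 at 2 weeks) to 0.362 (without replicate 1 at 4 weeks), while the difference stayed between 2.49 and 2.80. It was also lost when only the 4 arrays after Cre were fitted, with an adjusted p of 0.81.

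Nr1d2, which encodes REV-ERB beta, moved the same way but missed the threshold between the times. It read 9.58, 9.58 and 9.72 in the controls, 7.91 and 8.28 at 2 weeks, then 9.55 and 9.55 at 4 weeks. It had fallen 2.90-fold at 2 weeks (adjusted p = 0.0068), and both 4 week arrays were back within 0.2 log2 units of every control. The difference between the times was 1.46 (95% interval 1.15 to 1.77, adjusted p = 0.234). At 4 weeks Nr1d2 was not called against control (adjusted p = 0.754).

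The promoter windows of 4 clock genes are printed here because these genes took different courses: Nr1d1 reversed, Nr1d2 returned to control, and Per3 and Ciart stayed low. Each runs from 250 bases before to 50 after the RefSeq start on GRCm38.p6, on the minus strand in all 4. Capitals mark the letters CACGTG (E-box), TTATGTAA or TTACGTAA (D-box, bound by DBP, TEF and HLF) and AGGTCA (the core bound by ROR and REV-ERB receptors), each searched on both strands.
Nr1d1, chr11:98775328-98775627: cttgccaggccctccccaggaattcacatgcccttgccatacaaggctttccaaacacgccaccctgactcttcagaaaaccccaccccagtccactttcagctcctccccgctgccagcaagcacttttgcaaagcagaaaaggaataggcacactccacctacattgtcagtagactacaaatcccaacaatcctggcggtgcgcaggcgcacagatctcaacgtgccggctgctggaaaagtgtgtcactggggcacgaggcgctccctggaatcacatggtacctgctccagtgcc
Nr1d2, chr14:18239057-18239356: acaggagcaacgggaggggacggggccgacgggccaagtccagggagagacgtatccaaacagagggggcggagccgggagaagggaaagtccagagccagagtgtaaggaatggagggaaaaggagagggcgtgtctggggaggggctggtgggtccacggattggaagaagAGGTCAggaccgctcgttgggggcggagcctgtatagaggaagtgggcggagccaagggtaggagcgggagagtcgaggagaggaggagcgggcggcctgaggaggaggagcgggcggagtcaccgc
Per3, chr4:151044616-151044915: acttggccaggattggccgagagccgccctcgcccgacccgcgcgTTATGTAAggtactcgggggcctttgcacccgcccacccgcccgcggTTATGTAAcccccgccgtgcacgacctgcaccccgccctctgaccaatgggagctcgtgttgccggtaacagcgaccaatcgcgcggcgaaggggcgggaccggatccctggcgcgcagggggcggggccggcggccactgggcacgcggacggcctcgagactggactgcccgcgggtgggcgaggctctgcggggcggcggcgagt
Ciart, chr3:95882179-95882478: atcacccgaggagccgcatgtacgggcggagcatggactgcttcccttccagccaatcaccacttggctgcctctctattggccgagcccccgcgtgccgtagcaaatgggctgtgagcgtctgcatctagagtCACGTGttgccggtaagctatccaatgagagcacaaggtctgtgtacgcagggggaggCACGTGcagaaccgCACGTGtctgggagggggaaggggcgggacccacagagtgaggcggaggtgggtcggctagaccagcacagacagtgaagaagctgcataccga
The Nr1d1 window held none of these letters, Nr1d2 held 1 AGGTCA, Per3 held 2 D-boxes and Ciart held 3 E-boxes. Of all 32851 windows in the RefSeq table, 7.15% held the E-box, 1.06% a D-box and 16.3% AGGTCA. Of the 20 windows of 13 core clock genes that were measured and listed there, 4, 1 and 5 held them. A match or its absence in this window describes only these letters.

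No other core clock gene passed the test between the times. Of 16 measured members, 1 (Nr1d1) rose and 0 fell by the limma test. At an unadjusted p under 0.05, 3 were higher and 2 lower (31.2%), beside 7.43% of all genes. The list had a median difference of 0.02 between the times, beside 0.01 over all genes. Arntl, the activator that REV-ERBs repress, read 7.57, 7.21 and 7.05, then 9.27 and 9.37, then 8.96 and 8.80. It had risen 4.12-fold at 2 weeks (adjusted p = 0.00732) and 3.03-fold at 4 weeks (adjusted p = 0.00897), and the difference of -0.44 between the times did not pass the test (95% interval -0.87 to -0.02). Clock and Rora, which encodes an activator of Arntl, differed by 0.05 and -0.03 between the times.

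Per3, a period gene, read 7.79, 7.58 and 7.54 in the controls, 6.24 and 6.28 at 2 weeks, then 6.55 and 6.49 at 4 weeks. It had fallen at both times (-1.37 and -1.12), and the difference of 0.26 missed the threshold. Ciart, a repressor of CLOCK and BMAL1, read 8.58, 8.48 and 8.74, then 6.18 and 5.30, then 5.91 and 6.00. Its change of -2.86 at 2 weeks (adjusted p = 0.00877) stood at -2.64 at 4 weeks, and the 4 week arrays lay between the 2 week arrays. Cry1, a cryptochrome repressor, differed by -0.43 and was called against control at neither time. The sources used here do not give the clock hour of harvest.

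Clock output genes gave a similar picture. Of 18 measured, 0 passed between the times, and the median difference was 0.01. At an unadjusted p under 0.05, 2 were higher and 3 lower (27.8%), beside 7.43% of all genes. All 11 that had changed at 2 weeks kept 0.5 to 1.5 times that change at 4 weeks, as did 86.6% of early changes over all genes. Dbp, a PAR bZIP factor that binds the D-box, read 9.51, 9.87 and 10.00 in the controls, 7.38 and 7.39 at 2 weeks, then 8.04 and 8.20 at 4 weeks. It had fallen at both times (-2.41 and -1.67), and the 0.74 between the times (95% interval 0.34 to 1.14) missed the threshold with an adjusted p of 0.424. Tef, a factor of the same family, read 9.51, 9.80 and 9.96, then 8.05 and 8.01, then 8.60 and 8.35, again higher at 4 weeks without overlap.

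Wee1, a cell cycle kinase driven by the clock, had close replicates at each time. It read 9.64, 9.74 and 9.75 in the controls, 6.81 and 6.82 at 2 weeks and 6.97 and 6.91 at 4 weeks. Its difference of 0.13 (95% interval -0.02 to 0.27) was small beside changes of -2.89 and -2.77 from control. Usp2, a deubiquitinase, differed by -0.02 after an early change of -2.23. Pdk4, which inhibits pyruvate dehydrogenase, read 7.17, 6.99 and 7.14, then 8.72 and 8.40, then 8.25 and 8.01, so its rise of 1.46 stood at 1.03.

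**Figure D1:**
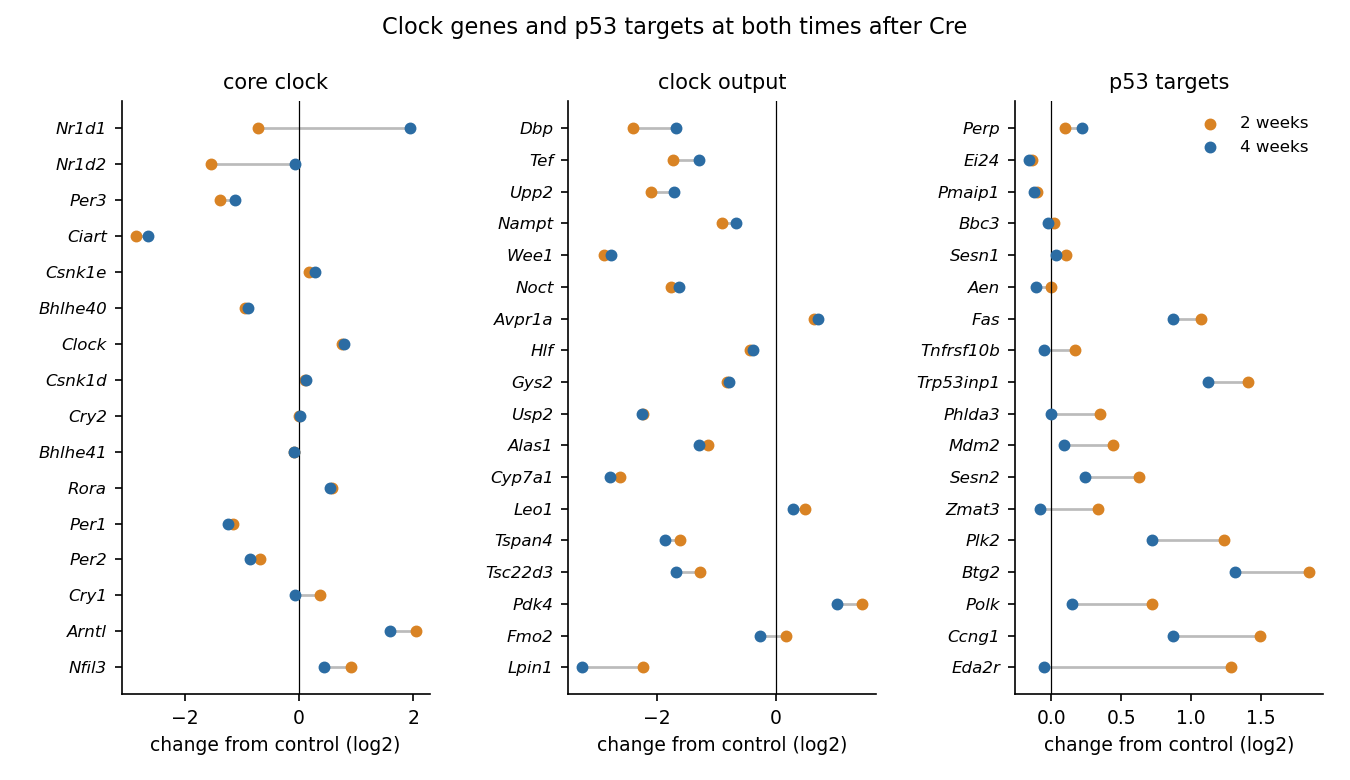
Change from control (log2) at 2 weeks (orange) and 4 weeks (blue) for each measured core clock gene, clock output gene and p53 target, ordered by the difference between the times; each point is a group mean of 2 arrays minus the mean of 3 controls. Nr1d1 crosses zero, Nr1d2 returns to it, most clock genes hold their place, and 17 of 18 p53 targets lie lower at 4 weeks.

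Targets of p53, the transcription factor of the DNA damage response, were lower at 4 weeks than at 2 weeks in 17 of 18 measured genes, with a median difference of -0.32. None passed the test between the times, and 5 were lower and 0 higher at an unadjusted p under 0.05, beside 3.23% and 4.2% of all genes. Over all 16819 genes 7682 lay below 0 and the median difference was 0.01. Against control the list's median was 0.39 at 2 weeks and 0.06 at 4 weeks, and 6 members had changed at 2 weeks and 3 at 4 weeks. Array by array, the medians against control were 0.503 and 0.256 at 2 weeks and 0.090 and 0.072 at 4 weeks, so the times did not overlap. Without replicate 1 at 2 weeks the median difference was -0.22.

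Eda2r, a receptor of the tumour necrosis factor receptor family, read 5.25, 5.63 and 5.19 in the controls, 6.51 and 6.78 at 2 weeks, then 5.37 and 5.24 at 4 weeks. It had risen 1.29 at 2 weeks (adjusted p = 0.0177), and at 4 weeks both arrays lay inside the control range. The difference of -1.34 (95% interval -1.76 to -0.92) missed the threshold, with an adjusted p of 0.27. Polk, a translesion DNA polymerase, read 6.79, 6.83 and 6.72, then 7.42 and 7.58, then 6.88 and 6.98. Its rise of 0.72 at 2 weeks (adjusted p = 0.0117) was 0.15 at 4 weeks.

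Ccng1, which encodes cyclin G1 and is also a reported miR-122 target, read 9.85, 9.93 and 9.95, then 11.16 and 11.65, then 10.76 and 10.80. It had risen 2.82-fold at 2 weeks and 1.83-fold at 4 weeks, and the arrays of the times did not overlap. Btg2, an antiproliferative gene, read 6.88, 6.97 and 6.69, then 8.39 and 8.99, then 8.44 and 7.88, and its times overlapped. Mdm2, which encodes the ubiquitin ligase of p53, read 8.98 and 8.53 at 2 weeks and 8.41 and 8.39 at 4 weeks, against 8.20 to 8.38 in the controls, and was called at neither time. Zmat3 and Sesn2, an RNA-binding protein and a stress-induced sestrin, differed by -0.41 and -0.39 between the times. Perp alone among the 18 was higher, by 0.13.

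Other transient rises followed the same shape outside that list. Several of these genes had low signals. Eda2r above and Ddias, Gria3, Emp1 and Krt88 below had mean signals under the median of all genes. They dropped out of the alternative fit without dim genes, while Fst, Exoc4 and Pik3c2g stayed in it. Ddias, which protects cells from apoptosis after DNA damage, read 5.88, 5.59 and 5.44 in the controls, 7.40 and 6.93 at 2 weeks, then 5.90 and 5.90 at 4 weeks. It had risen 1.53 at 2 weeks (adjusted p = 0.0166), and its difference of -1.27 between the times missed the threshold (adjusted p = 0.28). Gria3, a glutamate receptor subunit, read 5.24, 5.29 and 5.03, then 6.32 and 6.21, then 4.80 and 5.03. It had risen 1.08 at 2 weeks, and at 4 weeks the higher array equalled the lowest control to 2 decimals. Its difference of -1.35 (95% interval -1.65 to -1.05) had an adjusted p of 0.234, the smallest after Nr1d1 together with Nr1d2.

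Fst encodes follistatin, which binds activins, and read 7.35, 7.41 and 7.20, then 8.20 and 8.37, then 7.61 and 7.61. Its rise of 0.97 at 2 weeks stood at 0.29 at 4 weeks, and the difference was -0.68 (adjusted p = 0.27). Exoc4, a subunit of the exocyst that tethers secretory vesicles, read 8.13, 8.25 and 8.12, then 9.25 and 9.45, then 8.67 and 8.80. It was still above every control at 4 weeks, at 0.57 after 1.18. Pik3c2g, a class II phosphoinositide 3-kinase, read 7.41, 7.20 and 7.48, then 7.88 and 8.31, then 7.29 and 7.27, back inside the control range. Emp1, a membrane protein, and the keratin gene Krt88 had each risen 0.37 at 2 weeks and lay at -0.09 and -0.01 at 4 weeks.

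**Figure D2:**
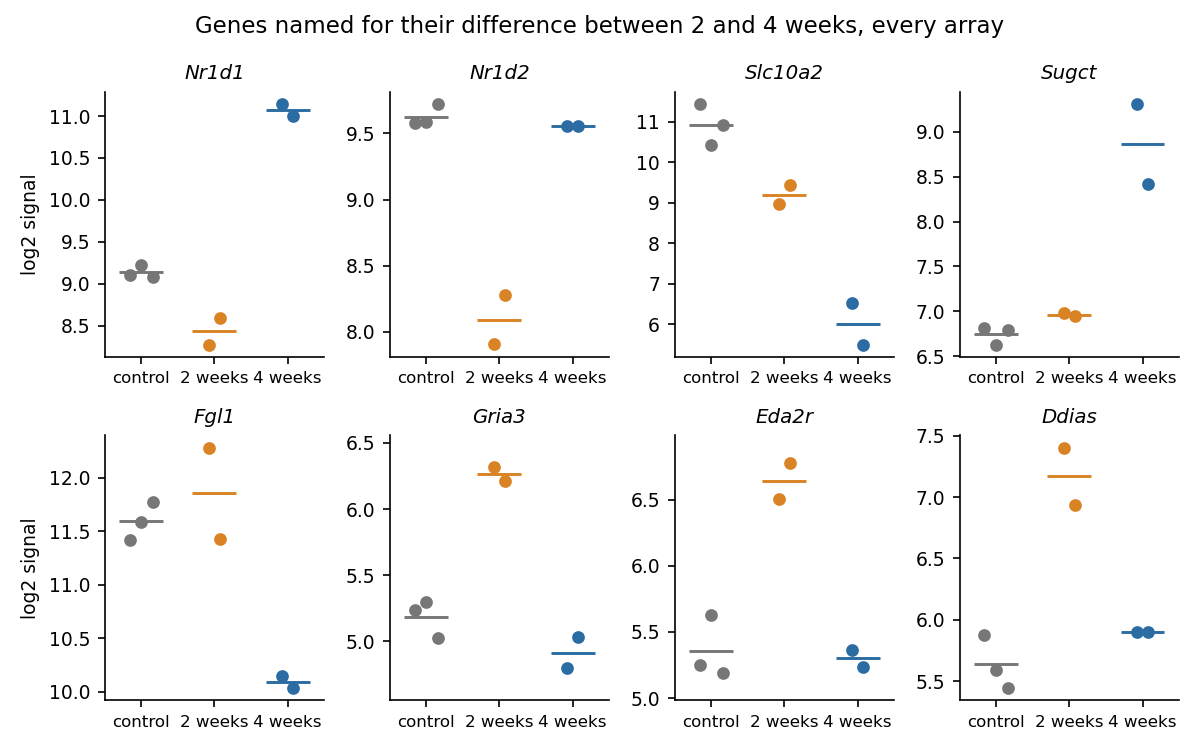
Log2 signal of every array for the 8 largest differences among the genes named for arrays that do not overlap between the times and an unadjusted p under 0.01, with group means as bars. Nr1d1 and Sugct are highest at 4 weeks, Nr1d2 returns to control, Slc10a2 and Fgl1 are lowest at 4 weeks, and Gria3, Eda2r and Ddias are high at 2 weeks only; of the 8, Nr1d1 passed the test between the times.

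The largest difference among the named genes was in Slc10a2, the apical sodium-dependent bile acid transporter, and it missed the threshold. It read 11.44, 10.42 and 10.93 in the controls, 8.97 and 9.44 at 2 weeks and 6.52 and 5.50 at 4 weeks, lower at each time with no overlap between any of the groups. The difference between the times was -3.20 (SE 0.45, 95% interval -4.31 to -2.08, adjusted p = 0.27). At 2 weeks the difference from control of -1.72 was not called (adjusted p = 0.0713), and at 4 weeks the difference of -4.92 was (adjusted p = 0.00772). Of 25 bile acid genes measured, 0 passed between the times, 16 lay above 0 and the median difference was 0.04.

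Cyp7a1, which catalyses the limiting step from cholesterol to bile acids, read 12.36, 12.68 and 12.67, then 10.16 and 9.74, then 8.79 and 10.75. All 4 arrays after Cre were below the controls and the 4 week arrays lay on either side of the 2 week arrays. Klb, the co-receptor for FGF15, read 8.79, 8.44 and 8.49, then 8.78 and 8.52, then 9.17 and 9.36, higher at 4 weeks by 0.61 without passing. Akr1d1, a reductase of bile acid synthesis, was higher by 0.24 and called against control at 4 weeks (adjusted p = 0.0149) but not at 2 weeks (adjusted p = 0.0667). The bile acid enzyme Cyp8b1 differed by -0.56, with arrays at 13.04 and 12.87 and then 11.98 and 12.81.

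Sugct, a mitochondrial transferase of glutarate breakdown, read 6.81, 6.63 and 6.79 in the controls, 6.98 and 6.94 at 2 weeks, then 9.31 and 8.42 at 4 weeks. The 2 week arrays lay just above the controls and the 4 week arrays far above both. The difference of 1.90 (95% interval 1.22 to 2.58) missed the threshold with an adjusted p of 0.27. Fgl1, a fibrinogen-like protein secreted by hepatocytes, read 11.42, 11.59 and 11.77, then 12.28 and 11.43, then 10.15 and 10.03. One 2 week array lay within the controls and the other above them, and it differed by -1.77 between the times (95% interval -2.46 to -1.07, adjusted p = 0.305).

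Tns2, a tensin of focal adhesions, read 8.44, 8.44 and 8.32, then 8.38 and 8.36, then 9.20 and 8.95, a difference of 0.70 (95% interval 0.47 to 0.94). Hyi, hydroxypyruvate isomerase, read 8.89, 8.89 and 8.80, then 8.88 and 8.44, then 10.11 and 9.51. Fut11, a fucosyltransferase, read 7.81, 7.93 and 7.55, then 7.58 and 7.70, then 6.88 and 6.82. In all 3 the 4 week arrays stood apart from both earlier groups. Nxpe2 differed by 1.17, Tmem14a by -0.54 and Them5, an acyl-CoA thioesterase, by -0.76, and none passed between the times.

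Among the remaining named genes the differences were smaller or the replicates wider. Cyp26a1, which degrades retinoic acid, read 8.16 and 7.72 at 2 weeks and 8.72 and 9.43 at 4 weeks, on either side of controls at 8.30 to 8.62. Selenbp2, a selenium-binding protein with male-biased liver expression, read 10.54 and 11.25 at 2 weeks and 11.98 and 11.85 at 4 weeks, and the controls lay at 11.14 to 11.30. Nat8f5, of an N-acetyltransferase family, read 9.23 and 9.49 and then 8.43 and 8.24, around controls of 8.71 to 9.01. Hspa4l, a chaperone of the HSP110 family, differed by -0.76 and Macrod2, an ADP-ribose hydrolase, by -0.83. Plekhb1 had fallen at 2 weeks (-0.77) and lay at -0.07 against control at 4 weeks, and Prp2 differed by 0.71.

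**Figure D3:**
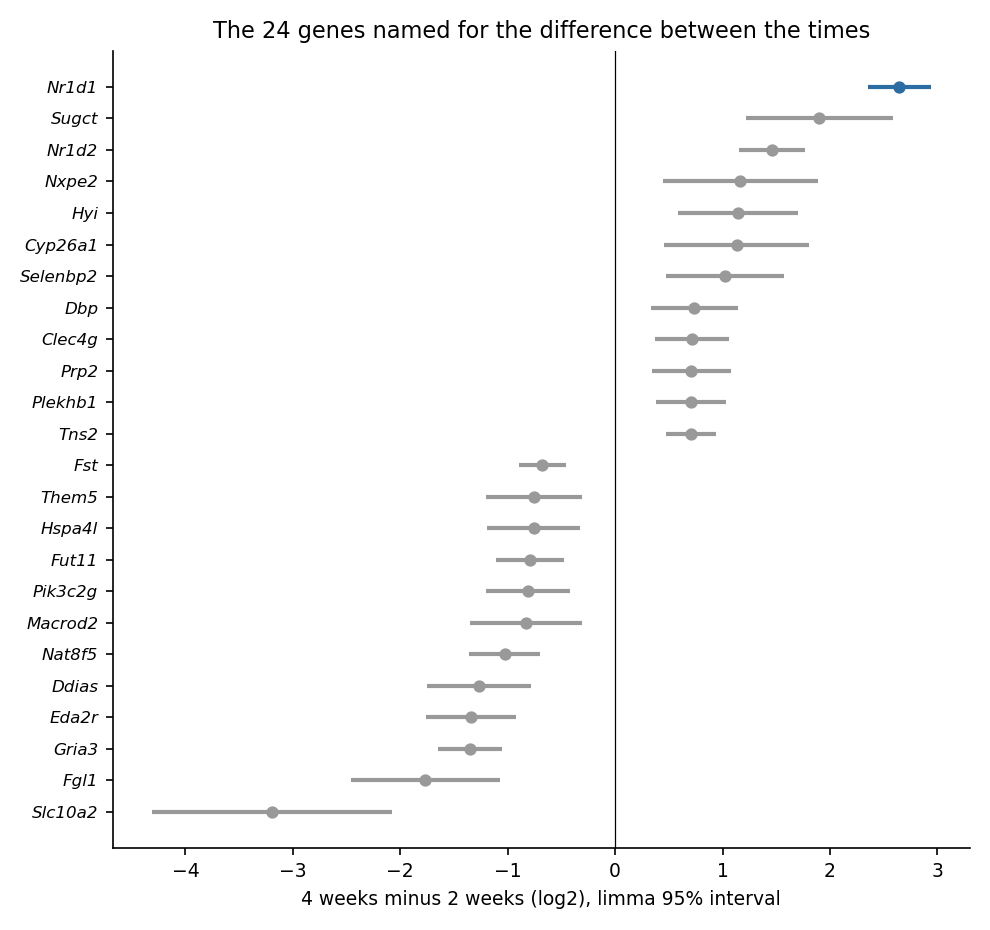
Difference between 4 and 2 weeks (log2) with its limma 95% interval for the 12 named genes with the largest positive and the 12 with the largest negative values. All were chosen for arrays that do not overlap and an unadjusted p under 0.01, so no interval reaches zero; Nr1d1 (blue) alone passed the adjusted threshold.

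At 2 weeks 997 genes (5.93%) differed from control at an adjusted p under 0.05 in limma, 582 higher (3.46%) and 415 lower (2.47%). At 4 weeks 1643 did (9.77%), 866 higher (5.15%) and 777 lower (4.62%). These comparisons share the control arrays. Of the 997 early changes, 863 (86.6%) had persisted at 4 weeks, meaning that the change from control was 0.5 to 1.5 times the early one. A further 71 (7.12%) had faded below 0.5 times, 49 (4.91%) had grown beyond 1.5 times and 14 (1.4%) had a change of opposite sign. The 2 week arrays enter both the choice of the 997 genes and the ratio. The control arrays enter both changes in the ratio, which can draw it towards equal change. The counts are therefore a description, and of the 997 genes only Nr1d1 passed the test between the times. The word reversed overstates most of the 14, since 2 of them were called against control at 4 weeks and the others were not.

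The ratio had a median of 0.98, with quartiles at 0.78 and 1.16. The nearest ratios to the lower limit were 0.493 (Scnn1a) and 0.501, and those nearest the upper limit were 1.496 (Morn2) and 1.504 (Cstb). Among the 148 early changes of at least 2-fold, 143 (96.6%) persisted, 3 faded, 2 reversed and 0 grew. The 95% interval of the difference between the times lay within 0.5 times the early change on either side in 270 of the 997 genes and in 84 of the 148, and for the others the arrays could not exclude a larger shift. The counts moved with single arrays: without control replicate 3, 37 genes persisted and 3 faded, and without replicate 1 at 2 weeks, 1366 persisted, 586 faded and 185 reversed.

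**Figure D4:**
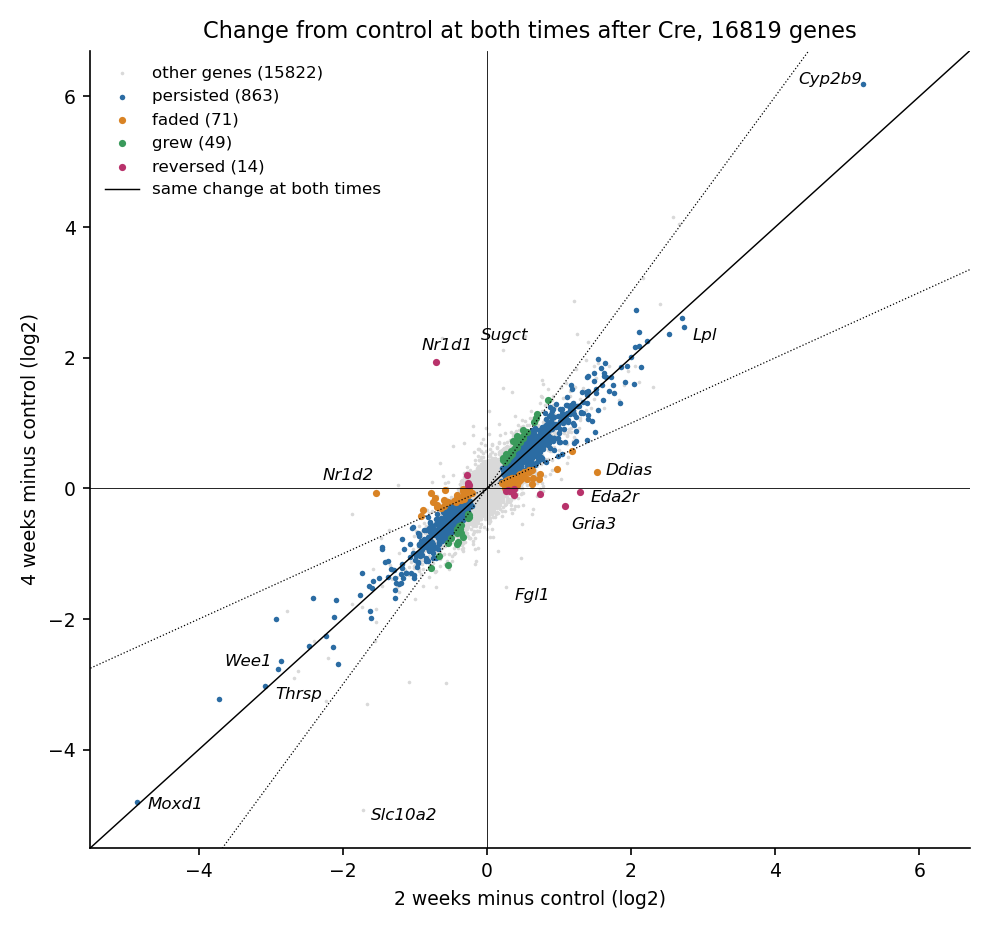
Change from control at 4 weeks against the change at 2 weeks (log2) for 16819 genes, the 997 early changes coloured by their course; the solid line marks equal change and the dotted lines 0.5 and 1.5 times the early change. Most coloured points follow the solid line, Nr1d1 lies in the upper left and Nr1d2, Ddias, Eda2r and Gria3 lie near zero at 4 weeks.

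A call at one time alone is not a test of the difference between the times. Of the genes called at 4 weeks, 832 were not called at 2 weeks, and 0 of them passed the limma test between the times. At an unadjusted p under 0.05 between the times 269 of these moved in the direction of their change from control. At 0.01 there were 126, 75 higher and 51 lower, where 1.94% of all genes passed that limit. The 832 genes were chosen on the same arrays, and that choice favours a difference between the times. These counts are therefore a description and cannot be read as an excess over the share of all genes. Conversely 186 genes were called at 2 weeks and not at 4 weeks.

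Lpl, lipoprotein lipase, the target named in the title of the series, persisted. It read 7.10, 7.36 and 7.18 in the controls, 9.11 and 10.80 at 2 weeks and 9.54 and 9.84 at 4 weeks. All arrays after Cre were above the controls, and the 4 week arrays lay between the 2 week arrays. It had risen 2.74 at 2 weeks (adjusted p = 0.0358) and 2.47 at 4 weeks (adjusted p = 0.0338). The difference of -0.26 had a wide interval, -1.54 to 1.01, so a fall or a rise of 2-fold between the times was within it. Gpihbp1, which anchors lipoprotein lipase on capillary endothelium, read 7.80 and 7.91 at 2 weeks and 8.09 and 8.18 at 4 weeks against 8.09 in each control.

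Lpl is a reported target of miR-29, and the family members are printed with their shared seed, bases 2 to 8, in capitals (RefSeq, GRCm38.p6). The list of targets read below holds genes named as reported targets, and no transcript was searched for the seed.
miR-29a-3p, chr6:31062673-31062694, minus strand: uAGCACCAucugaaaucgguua
miR-29b-3p, chr1:195037091-195037113, plus strand: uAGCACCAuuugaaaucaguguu
miR-29c-3p, chr1:195037600-195037621, plus strand: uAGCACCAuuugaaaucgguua
Of 28 reported miR-29 targets measured, 0 passed between the times, 13 lay above 0 and the median difference was -0.01. Of 5 that had changed at 2 weeks, 4 persisted, beside 86.6% of early changes over all genes. The fifth, Col15a1, a basement membrane collagen, faded from 0.36 to 0.04. Dnmt3b, a DNA methyltransferase, read 7.01, 6.87 and 6.90, then 7.97 and 7.60, then 7.64 and 7.72, with its 4 week arrays between the 2 week arrays.

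Reported targets of miR-122 and let-7 were read in the same way. Of 34 miR-122 targets measured, 0 passed between the times, and all 8 that had changed at 2 weeks persisted, beside 86.6% of early changes over all genes. Their list median was 0.31 at 2 weeks and 0.30 at 4 weeks against control. Adam10, a sheddase, read 8.84, 8.77 and 8.87, then 9.54 and 10.09, then 9.91 and 9.98, and Tgfbr1, a TGF-beta receptor, differed by 0.16 after a rise of 0.64. Of 24 let-7 targets, 0 passed between the times and all 5 with early changes persisted, so both counts lay near the share over all genes. Irs2, an insulin receptor substrate, read 7.87, 7.56 and 7.65, then 8.76 and 9.05, then 8.39 and 8.39, while Insr, the insulin receptor, read 10.27, 10.39 and 10.36, then 10.82 and 10.86, then 10.99 and 11.05. Without overlap between the times, Irs2 lay nearer to control at 4 weeks and Insr farther from it.

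Moxd1, Thrsp, Cyp2b9 and Nnmt were named from the genes that persisted, so their course is a description. Moxd1, of the copper monooxygenase family, read 10.55, 10.99 and 10.72 in the controls, 6.08 and 5.72 at 2 weeks and 5.74 and 6.17 at 4 weeks, a difference of 0.06 (95% interval -0.48 to 0.59) after an early change of -4.86. Thrsp, a regulator of lipogenesis, read 12.86, 12.99 and 12.90, then 9.62 and 10.05, then 9.83 and 9.97, a difference of 0.06 (95% interval -0.29 to 0.42) after an early change of -3.08. Cyp2b9, a female-biased cytochrome P450, read 5.39, 6.50 and 7.38, then 10.49 and 12.79, then 12.50 and 12.72. Its difference of 0.97 had a wide interval, -1.28 to 3.21, and both the controls and the 2 week arrays were far apart. Nnmt, nicotinamide N-methyltransferase, read 10.75, 10.50 and 10.50, then 7.99 and 7.33, then 8.28 and 8.88, and its early change of -2.93 stood at -2.00. Its 4 week arrays were nearer to control without overlap, and the difference of 0.93 (95% interval 0.23 to 1.62) missed the threshold with an adjusted p of 0.55.

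Cldn1, Nrg4 and Tnrc6a differed little between the times. Cldn1, a tight junction claudin, read 9.17, 9.33 and 9.45, then 11.37 and 11.50, then 11.57 and 11.44, and differed by 0.07 (95% interval -0.20 to 0.34). Nrg4, an epidermal growth factor family ligand, read 8.38, 8.69 and 8.56, then 6.05 and 6.11, then 6.07 and 6.19, and differed by 0.05 (95% interval -0.21 to 0.32). Tnrc6a, a GW182 protein of the microRNA effector complex, read 8.50, 8.52 and 8.64, then 9.69 and 9.72, then 9.62 and 9.77, and differed by -0.01 (95% interval -0.20 to 0.17). In each of these 3 genes the later arrays reached the level of the earlier ones. Jun, an AP-1 subunit, had risen 2.11 at 2 weeks and 2.40 at 4 weeks. Asl, of the urea cycle, had fallen at both times (-0.81 and -0.87).

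Genes that grew moved by smaller steps. Rev3l, the catalytic subunit of DNA polymerase zeta, read 8.22, 8.26 and 8.23 in the controls, 8.90 and 8.87 at 2 weeks and 9.26 and 9.23 at 4 weeks. Its replicates were the closest of this class among the named genes, and the difference of 0.36 (95% interval 0.26 to 0.47) had an adjusted p of 0.27. Krt18, a keratin of hepatocytes and bile ducts, read 10.21, 10.70 and 10.47, then 11.14 and 11.49, then 11.76 and 11.86, a rise of 0.86 that became 1.35. Adamts7, a secreted metalloprotease, went from 0.70 to 1.14 above control, and Mcu, the mitochondrial calcium uniporter, from 0.68 to 1.08. Taf1d, a factor of RNA polymerase I, went from -0.78 to -1.21 and Tango2 from -0.66 to -1.03. All 6 missed the threshold between the times.

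Falls that faded included the glucose transporter of hepatocytes. Slc2a2 (GLUT2) read 12.55, 12.65 and 12.66 in the controls, 11.77 and 11.70 at 2 weeks and 12.19 and 12.38 at 4 weeks. Its change of -0.88 stood at -0.33 at 4 weeks, both called against control, and the difference of 0.55 (95% interval 0.36 to 0.74) had an adjusted p of 0.27. Bdh2, a cytosolic hydroxybutyrate dehydrogenase, read 9.44, 9.51 and 9.31, then 8.52 and 8.49, then 9.07 and 8.92. The other 7 of 8 glucose genes with early changes persisted, beside 86.6% of early changes over all genes. Among these glucose genes Pfkfb3, whose product makes an activator of glycolysis, differed by 0.17 after an early change of -2.13. Pklr, liver pyruvate kinase, differed by 0.02 after an early change of -1.37.

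Acute phase genes were lower at 4 weeks in 20 of 26 measured, with a median difference of -0.15, 0 passing the test and 4 lower at an unadjusted p under 0.05. Over all genes 7682 of 16819 lay below 0, and 3.23% were lower at that limit. Stat3, the transcription factor of interleukin 6 signalling, read 10.25, 10.09 and 10.09, then 10.83 and 10.75, then 10.32 and 10.30, and its rise of 0.64 at 2 weeks (adjusted p = 0.0129) was 0.16 at 4 weeks. Orm2, an orosomucoid, read 8.93, 9.49 and 9.52, then 8.54 and 8.67, then 8.08 and 7.51. Fga, the fibrinogen alpha chain, persisted at 1.59 after 1.75. Saa1 and Saa2, serum amyloid genes whose near-identical copies may share probes, were unlike between the 2 week arrays, at 9.56 and 6.71 for Saa1 and 9.75 and 7.88 for Saa2. Of 24 interferon-stimulated genes 19 lay below 0, with a median of -0.08 and 0 changed at 2 weeks.

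Markers of other cell types were read beside these results. Endothelial markers were higher at 4 weeks in 10 of 12, with a median of 0.16, and averaged 8.68 to 8.75 in the controls, 8.51 to 8.87 at 2 weeks and 8.78 to 8.87 at 4 weeks. Clec4g, a lectin of sinusoidal endothelium, read 10.89, 11.13 and 10.87, then 10.86 and 10.82, then 11.39 and 11.74, a difference of 0.72 that missed the threshold (adjusted p = 0.381). Stellate cell and fibroblast markers averaged 8.26 to 8.30, 8.44 to 8.59 and 8.37 to 8.45 in the 3 groups in turn. Macrophage markers averaged 7.91 to 8.15, 7.98 to 8.28 and 7.94 to 8.21. In whole liver, fewer cells of a type and less RNA per cell cannot be told apart, and the part of these shifts in other results was not tested.

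The 2 arrays at 2 weeks were not alike. Over the 2171 genes (12.9%) that changed in the mean of both times against control, an array's median share of the mean change was 0.79 and 1.09 at 2 weeks and 1.03 and 1.06 at 4 weeks. With 2 arrays at each time this choice of genes does not fix the direction between the times. Of these genes 1359 (62.6%) lay farther from control at 4 weeks and 812 nearer. Without replicate 1 at 2 weeks the share farther from control was 45.7% of the same genes. Without replicate 2 at 2 weeks it was 73.7% of the same genes.

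In 20 genes the 2 week arrays differed by at least 2 log2 units, beside 13 genes at 4 weeks and 8 among the 3 controls. Replicate 1 was the nearer of the pair to control in 18 of the 20. Gsn, gelsolin, read 7.98, 8.16 and 8.16, then 8.23 and 10.40, then 11.21 and 10.73. Cyp2b13, a female-biased cytochrome P450, read 4.67, 3.82 and 4.67, then 4.81 and 9.14, then 8.67 and 8.41. In both, replicate 1 at 2 weeks read as the controls did and replicate 2 came close to the 4 week arrays.

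Imprinted transcripts also split. Meg3, a noncoding RNA of the Dlk1 to Dio3 locus, read 8.05, 7.73 and 7.69, then 8.71 and 11.74, then 9.96 and 11.33, and Rian, from the same locus, read 4.75, 4.36 and 4.12, then 5.55 and 7.60, then 7.03 and 8.24. Igf2, a fetal growth factor, read 6.69, 6.68 and 6.76, then 6.69 and 10.65, then 7.65 and 9.36. For these 3 genes the arrays after Cre overlapped between the times and spread over 2 to 4 log2 units. Hsd3b5, a male-biased steroid dehydrogenase, went the other way: it read 10.29, 9.96 and 9.97, then 10.50 and 5.90, then 9.83 and 9.55. Replicate 2 at 2 weeks was by far the lowest, and both 4 week arrays lay a little below every control.

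**Figure D5:**
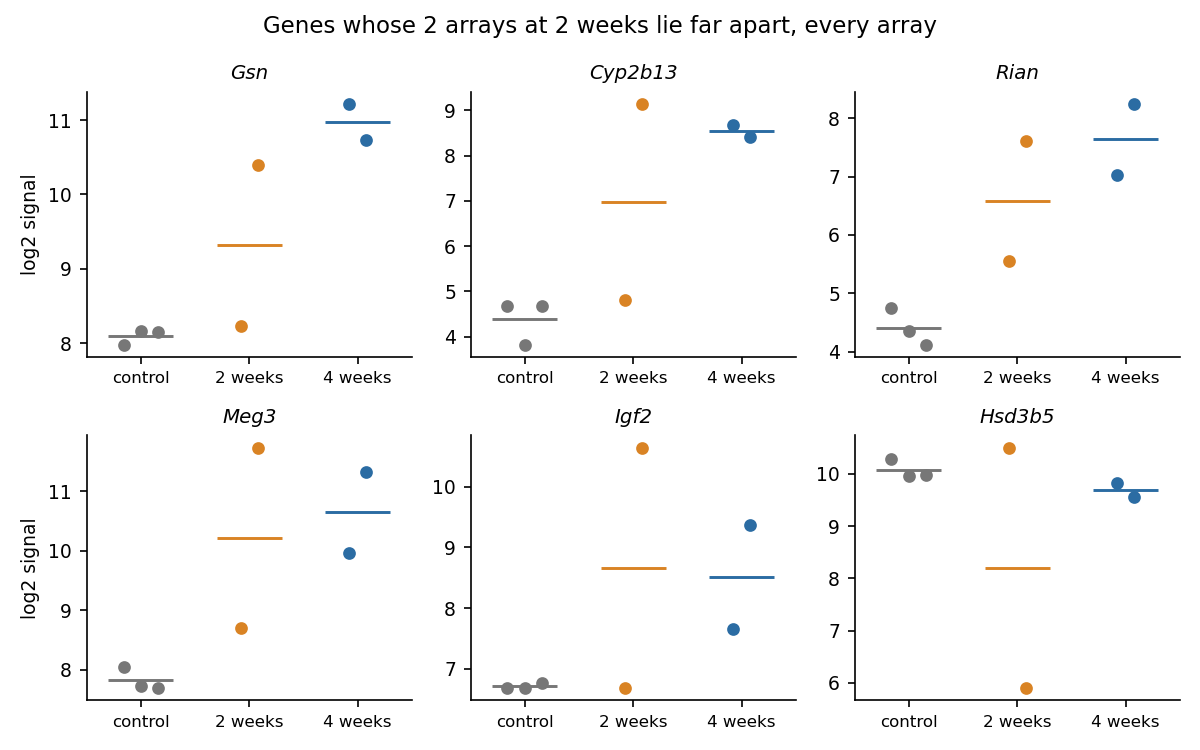
Log2 signal of every array for 6 genes picked for far apart arrays at 2 weeks, with group means as bars. The 2 week mean falls between arrays that resemble the controls and arrays that resemble 4 weeks in Gsn and Cyp2b13, and in Hsd3b5 a single 2 week array at 5.90 is low.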

How the data were processed

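Each array was assigned to its group by the time in its label, and arrays within a group are labelled as biological replicates. The authors' deposited values are log2 signals, read as such from their range of 3.15 to 14.72, and array medians of 7.07 to 7.09. The submitters' processing notes name GCOS 1.4 with no role. The sources used here do not give normalization or detection filters. RNA was labelled with the Affymetrix whole-transcript sense assay, per the labels' protocols.

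Of 21093 probe sets, 17709 had 1 gene symbol, 187 several and 3197 none, and 463 genes had more than 1 probe set. With limma (3.58.1, R 4.3.3; lmFit and eBayes), 1 model of the 3 groups was applied to the deposited log2 values of all 7 arrays, without further scaling or filter. It had 4 residual and 1.69 prior degrees of freedom. Tests were two-sided, with Benjamini-Hochberg adjustment over 16819 genes and a threshold of 0.05. The steps were tested on simulated data. An exact permutation of 2 against 2 arrays cannot go below p = 0.333, so none is given. The number of arrays limits the precision.

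Named genes were Dicer1, Lpl, the 12 largest differences in each direction (no overlap, adjusted p under 0.05, filled from an unadjusted p under 0.01), up to 6 per course and 6 late ones, and in each list up to 4 by smallest p and 2 by largest early change. The other genes named were chosen after their values were seen. Clone-like names were left out. Members, lists and tests were chosen with earlier results of these data known. Microarray probes of near-identical genes (Cyp2, Saa, Ugt and similar families) may share signal. Promoter and microRNA sequences are RefSeq's, and those not in the tables or not reported here are named only. Alternatives were another scaling, dim genes left out, moderation with a trend, robust moderation, array weights, the mean of probe sets, the replicate block, the 4 arrays alone, each array left out, and other limits for the courses.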

Additional observations from a re-analysis of the deposited data

Results flagged for a closer look

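Nr1d1 moved in opposite directions from control at the times compared: both arrays at 2 weeks lay below all 3 controls and both at 4 weeks above them. The difference, 4 weeks minus 2 weeks, was 2.65 log2 units and was itself tested in limma (adjusted p = 0.0155). Over 16 alternative settings it ran from 2.49 to 2.80, with adjusted p from 0.00282 to 0.81.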

How the results depend on the processing

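Of 44 named genes, 38 kept the sign of the difference between the times in all 16 settings (15 for genes dropped as dim). Leaving out each array in turn left 0 genes called higher, 0 to 185 reversed, 3 to 586 faded, 37 to 1366 persisted and 1 to 35 grown, with 31.1% to 67.9% farther from control. The share farther from control is taken here over the genes called in each setting. With 1 array left at a time, that choice favours a direction, so the ends of its range are partly set by the choice. Among the 2171 genes of the main fit it ran from 45.7% to 73.7%. Over all settings the differences ran from -0.018 to 0.214 for Dicer1, -1.11 to 0.58 for Lpl and -0.18 to 2.12 for Cyp2b9. They ran from -0.16 to 0.27 for Moxd1, -0.15 to 0.28 for Thrsp and -0.22 to 0.66 for Ciart. Over genes, replicate 1 minus replicate 2 at 2 weeks and the same difference at 4 weeks had a correlation of 0.111. This value does not settle whether arrays of the same replicate number belong together. With the replicate block 0 genes were higher, all courses held 0 genes, 40% were farther, and Nr1d1 had an adjusted p of 0.785. With the 4 arrays alone 0 genes were higher. With dim genes left out 8 reversed, 1511 persisted and 99 grew, and with array weights 4, 25, 396 and 14 reversed, faded, persisted and grew. Ratio limits of 0.3 and 2 gave 28 faded and 6 grown. Early genes taken at 2-fold without overlap gave 3, 7, 223 and 9 in the same order. Late changes numbered 126 at an unadjusted p under 0.01, a limit chosen after seeing the data. The causes were not tested. With dim genes left out the neutrophil and T and NK lists had no member. List medians moved by more than the spread between replicates in 78 of 718 recomputations.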

Other observations

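Some genes outside the accounts above also separated the times without passing the test. Cyp4a14, a fatty acid omega-hydroxylase and target of the receptor PPAR alpha, read 6.92 and 6.83 at 2 weeks and 8.87 and 7.50 at 4 weeks, with controls at 6.46 to 6.92. Acot2 and Acot3, acyl-CoA thioesterases that the same receptor induces, differed by 0.53 and 0.94, and the times did not overlap in either. Ppara itself differed by -0.20. Of the 21 measured genes of fatty acid oxidation and ketogenesis, 10 lay above 0 and 11 below, with a median of -0.0039.

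Cell cycle genes lay above 0 in 23 of 31, with a median of 0.08 and 0 of them at an unadjusted p under 0.05. Matrix and cytoskeletal genes gave a few ordered series. Mmp14, a membrane-bound matrix metalloprotease, read 8.94, 8.59 and 8.61 in the controls, 9.29 and 9.63 at 2 weeks and 9.89 and 10.15 at 4 weeks, and Tpm4, a tropomyosin, read 8.58, 8.60 and 8.71, then 8.79 and 8.93, then 9.21 and 9.28. Both were called against control at 4 weeks (adjusted p = 0.0136 for Mmp14 and 0.0110 for Tpm4) and not at 2 weeks. Lin28a, whose protein blocks let-7 maturation, read 6.96 to 7.01 in the controls, then 6.78 and 6.83, then 7.20 and 7.27, a difference of 0.43 (95% interval 0.31 to 0.56) at a low signal.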
